A study of Mus musculus with 2 samples.

Results

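This account covers 8 genes of the tumour necrosis factor (TNF) receptor costimulation system, 4 receptors (Tnfrsf4, Tnfrsf9, Tnfrsf18 and Cd27) and their 4 ligands (Tnfsf4, Tnfsf9, Tnfsf18 and Cd70), chosen by gene symbol among the 32285 genes of the files. They were measured in single cells from mouse tumours by droplet sequencing of the 3' ends of transcripts, in 1 library from a group given cepharanthine (CEP) and 1 from a vehicle group (Vehicle). Cepharanthine is a plant alkaloid of the bisbenzylisoquinoline kind. The tumours were dissociated with enzymes and CD45-positive leukocytes were enriched with magnetic beads in both groups. The design text states 5 biological replicates per group, but cells cannot be traced to animals from the labels, so each group is 1 sample and no test between groups was possible. The tumour model, strain, sex, age, dose and time of treatment are not given in the sources used here.

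Costimulatory receptors of the TNF family sit on lymphocytes and, when bound by ligands on antigen-presenting cells, recruit TRAF adaptors that switch on NF-kB and survival genes. OX40 (Tnfrsf4), 4-1BB (Tnfrsf9, also CD137) and GITR (Tnfrsf18) are raised on activated T cells, and regulatory T cells, which carry the transcription factor Foxp3, are known to display them. CD27 (Cd27) is already present on resting T cells. Their partners are OX40L (Tnfsf4), 4-1BBL (Tnfsf9), GITRL (Tnfsf18) and CD70 (Cd70), which antigen-presenting cells display after activation.

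The genes lie in pairs on the mouse genome (GENCODE M21, build GRCm38). Tnfrsf4 (chromosome 4, 156013843 to 156016612, plus strand) and Tnfrsf18 (chromosome 4, 156026164 to 156028895, plus strand) are separated by 9551 bases. Tnfrsf9 (chromosome 4, 150914562 to 150946102, plus strand) lies 5067740 bases away from Tnfrsf4. Tnfsf4 (chromosome 1, 161395409 to 161418410, plus strand) and Tnfsf18 (chromosome 1, 161494655 to 161505290, plus strand) are 76244 bases apart. Tnfsf9 (chromosome 17, 57105325 to 57107757, plus strand) and Cd70 (chromosome 17, 57145997 to 57149777, minus strand) are 38239 bases apart, and Cd27 lies on chromosome 6 (125232622 to 125237010, minus strand). Tnfrsf9 overlaps Camta1 and Cd27 overlaps Vamp1 on the opposite strand, Tnfrsf18 overlaps the antisense gene Gm16008 and Tnfsf9 the non-coding Gm11110.

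The stretches before the transcription starts of the receptors are shown because NF-kB is the best known output of these receptors and 3 of the receptor genes were highest in the same cells. The set of RefSeq promoter windows used here, of build GRCm38.p6, held 5 of the 8 genes, 6 windows in all, with 2 starts for Tnfrsf9 and none for Tnfsf4, Tnfsf9 and Cd70. The 250 bases before each start were searched on both strands for the kappaB letters (GGG, then NNNNN for any 5 bases, then CC), the forkhead letters TGTTTAC and the AP-1 letters TGANTCA. Capitals mark kappaB matches, overlapping matches run together, and windows were shortened where GENCODE places an exon, the second Tnfrsf9 start being reduced to the bases around its match.
Tnfrsf4, chr4:156013611-156013694, plus strand: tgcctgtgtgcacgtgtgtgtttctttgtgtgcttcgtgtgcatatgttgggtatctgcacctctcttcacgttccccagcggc
Tnfrsf18, chr4:156026072-156026163, plus strand: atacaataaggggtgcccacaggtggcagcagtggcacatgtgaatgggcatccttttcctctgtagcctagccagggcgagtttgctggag
Tnfrsf9, first start, chr4:150919905-150920154, plus strand: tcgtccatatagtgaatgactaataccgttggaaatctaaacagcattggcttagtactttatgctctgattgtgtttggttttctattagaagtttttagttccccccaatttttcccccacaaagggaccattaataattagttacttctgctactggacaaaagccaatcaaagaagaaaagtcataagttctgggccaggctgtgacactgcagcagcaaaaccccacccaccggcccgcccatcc
Tnfrsf9, second start, chr4:150927947-150927976, plus strand: agagcagctGGGGATTTCCCaggaggccct
Cd27, chr6:125237028-125237277, minus strand: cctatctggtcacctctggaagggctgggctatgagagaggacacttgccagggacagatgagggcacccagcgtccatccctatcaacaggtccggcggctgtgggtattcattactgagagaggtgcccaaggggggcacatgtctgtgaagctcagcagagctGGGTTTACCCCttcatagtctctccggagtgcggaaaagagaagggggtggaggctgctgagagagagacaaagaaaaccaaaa

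The second Tnfrsf9 start held 2 overlapping kappaB matches, the last ending 33 bases before the start, and 1 AP-1 match. Cd27 held 2 overlapping kappaB matches ending 74 bases before its start. The 250 bases before Tnfrsf4, Tnfrsf18, Tnfsf18 and the first Tnfrsf9 start held no match to any of the 3 motifs. Over all 32851 RefSeq windows of the same length, 45.8% held a kappaB match, 6.75% an AP-1 match and 3.17% a forkhead match, so a kappaB match is common by its letters alone.

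The files held 9621 CEP and 9989 Vehicle barcodes with 88721774 and 81208647 unique molecular identifiers (UMIs, 1 per captured transcript), and 136 barcodes occurred in both. Filters kept 9544 and 9932 cells. Cells were assigned to 6 gates by UMIs of a few marker genes. Macrophages had at least 10 C1qa, C1qb and C1qc UMIs, and neutrophils at least 1 of Csf3r or Cxcr2 with under 3 C1q UMIs. T cells had at least 2 Cd3d, Cd3e or Cd3g UMIs with under 3 C1q UMIs and were divided by the presence of a Foxp3 UMI. Dendritic cells had at least 1 Flt3 UMI and epithelial cells at least 10 Krt8 and Krt18 UMIs, both with under 10 C1q UMIs. This gave 4706 CEP and 5160 Vehicle macrophages, 1687 and 2143 neutrophils, 29 and 45 Foxp3-positive T cells, 143 and 226 Foxp3-negative T cells, 92 and 98 dendritic cells, and 834 and 133 epithelial cells. No gate took 2107 and 2168 cells.

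Defining markers followed the gate names, but the T cell gates also held RNA of other cells. T cell markers other than Cd3 summed to between 1451 and 2147 CPM (UMIs per 1000000 UMIs of the gate) in the T cell gates. In the other gates they summed to at most 32.0 CPM. Of the Foxp3-negative T cells, 20 CEP and 30 Vehicle cells also met another gate and carried 30.4% and 24.6% of the gate's UMIs. Neutrophil markers (S100a8, S100a9 and 4 others) summed there to 32918 and 45117 CPM, and to 366 and 1331 CPM in cells of 1 gate only. Among Foxp3-positive T cells 3 cells of each library met another gate, with 29.0% of the CEP and 14% of the Vehicle UMIs. Neutrophil markers there summed to 1119 CPM in CEP and 14417 CPM in Vehicle, and to 347 and 401 CPM in cells of 1 gate. Epithelial markers stood at 657 CPM in the CEP cells and at 0 in the Vehicle cells of that gate, and were at 0 in both once cells of 1 gate were taken. Comparisons in T cells are therefore also given for cells in 1 gate, the gates that follow being as defined unless this is said.

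Levels below are CPM with 95% exact Poisson intervals, and shares carry exact Clopper-Pearson intervals. For a count of 0, the limit given is a floor of 3 counts, divided by the cells or UMIs counted, and for shares it limits cells with a UMI, not cells expressing the gene. Intervals and floors cover counting error only, and are too narrow where the UMIs of a gene come from few cells. A level difference in a gate can come from more cells with the gene or from more RNA per cell, and these cannot be told apart from the sum alone. Since 3' counts per gene depend on the gene, each gene is compared across cells and not with another gene.

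**Figure D1:**
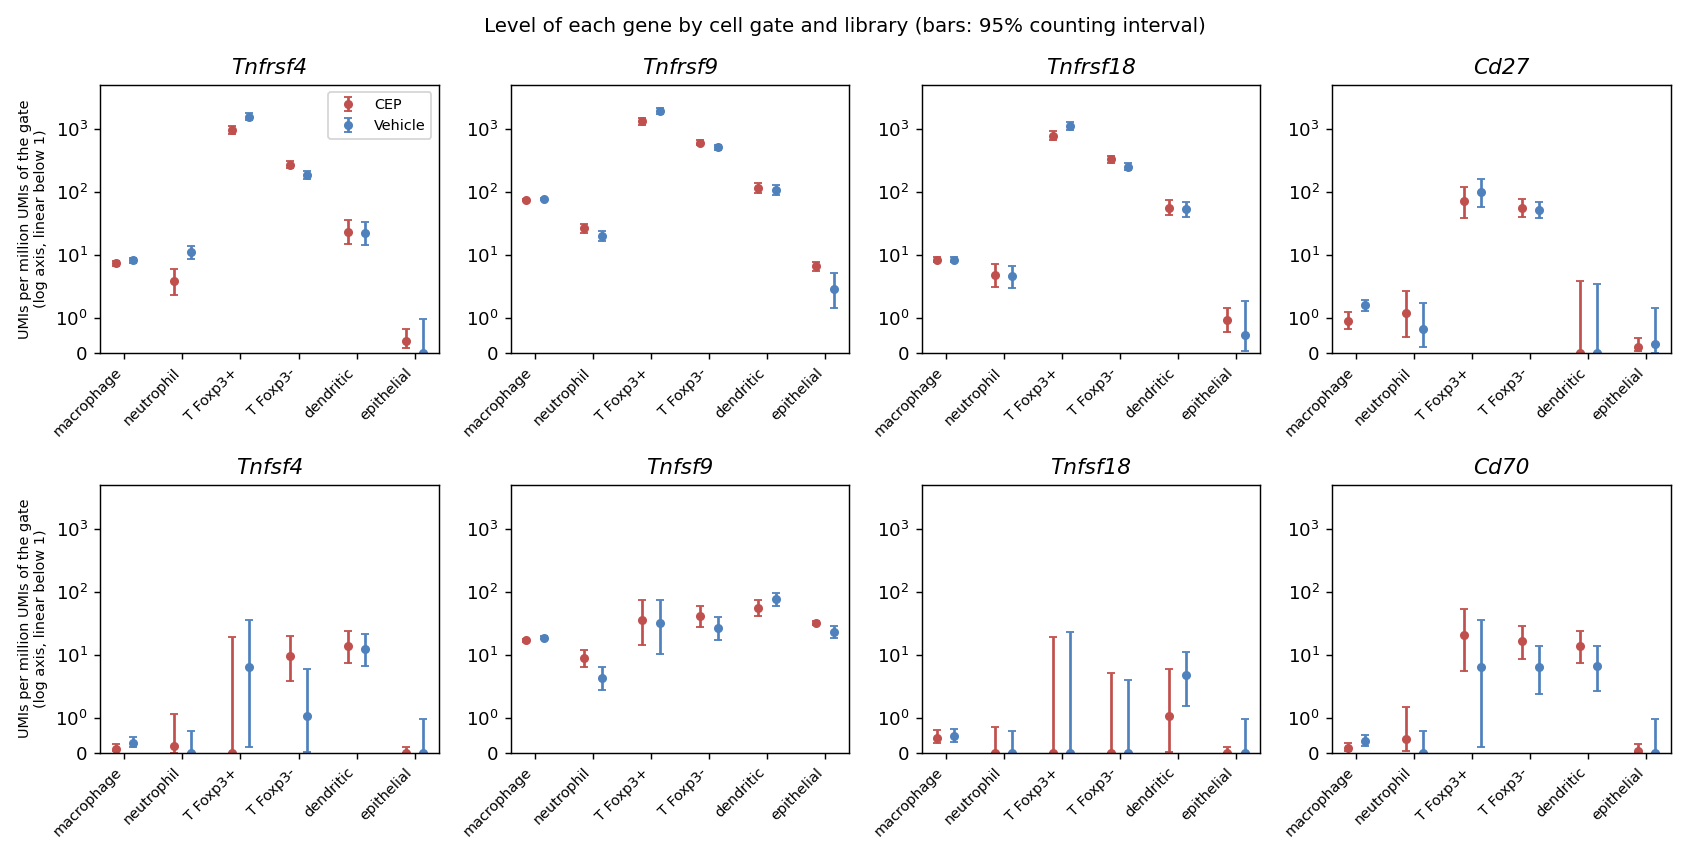
Each panel is 1 gene; the vertical axis gives the level in CPM on a log axis (linear below 1), the horizontal axis the 6 gates, red points the CEP and blue points the Vehicle library, and bars 95% counting intervals. Tnfrsf4, Tnfrsf9 and Tnfrsf18 were highest in the Foxp3-positive T cells of both libraries. Cd27 was too, but with intervals that overlapped those of Foxp3-negative T cells. Tnfsf9 spread over all gates, and Tnfsf18 was at 0 in T cells, neutrophils and epithelial cells.

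Receptors. OX40 RNA had its highest level in Foxp3-positive T cells. Tnfrsf4 stood at 965 CPM (832 to 1113; 188 UMIs) in CEP and 1570 CPM (1381 to 1777; 250 UMIs) in Vehicle Foxp3-positive T cells, against 273 and 185 CPM in Foxp3-negative T cells. A Tnfrsf4 UMI was found in 27 of 29 and 39 of 45 Foxp3-positive cells and in 55 of 143 and 74 of 226 Foxp3-negative cells. Dendritic cells followed at 23.5 and 22.6 CPM, then macrophages at 7.35 and 8.31 CPM and neutrophils at 3.86 and 11.1 CPM. Epithelial cells, which should lack the gene, held 8 UMIs in 3 of 834 CEP cells and none in 133 Vehicle cells, which allows a share of up to 2.26%. Both T cell gates were far above the rest, with intervals that did not overlap those of any other gate. By number of UMIs the order was another, since macrophages were many. The macrophage gate held 40.3% of the 945 CEP and 41.8% of the 1224 Vehicle Tnfrsf4 UMIs of all kept cells, and Foxp3-positive T cells of 1 gate 19% and 16.1%.

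GITR RNA was highest in the same 3 gates. Tnfrsf18 was at 780 CPM (661 to 914) and 1130 CPM (971 to 1308) in Foxp3-positive T cells and at 332 and 254 CPM in Foxp3-negative T cells. The dendritic gate came next with 56.6 and 53.8 CPM, then macrophages with 8.43 and 8.47 CPM and neutrophils with 4.87 and 4.61 CPM. The macrophage and neutrophil intervals did not overlap, but both gates held cells with T cell RNA. Neutrophils of 1 gate held 8 and 6 Tnfrsf18 UMIs, 1.99 and 1.09 CPM, and the macrophage UMIs are divided by T cell RNA below. Median depth was 3184 and 2539 UMIs in Foxp3-positive T cells, 2745 and 2741.5 in Foxp3-negative T cells, 26412.5 and 27614 in epithelial cells and 10017 and 11228.5 in macrophages, so the T cell shares were not those of the deepest cells.

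4-1BB RNA was highest in the same T cells but reached beyond them. Tnfrsf9 was at 1324 CPM (1167 to 1496) and 1909 CPM (1700 to 2136) in Foxp3-positive and at 609 and 511 CPM in Foxp3-negative T cells. It stood at 116 and 109 CPM in dendritic cells, 74.4 and 77.0 CPM in macrophages, 26.4 and 20.2 CPM in neutrophils and 6.59 and 2.88 CPM in epithelial cells. Because macrophages were so many, 63.0% of the 6125 CEP and 64.6% of the 7348 Vehicle Tnfrsf9 UMIs of all kept cells lay in the macrophage gate. Foxp3-positive T cells of 1 gate held 4.08% and 3.76% and Foxp3-negative ones 6.81% and 6.27%.

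CD27 RNA was scarce. Cd27 gave 148 and 232 UMIs in all kept cells. Foxp3-positive T cells held 71.8 CPM (39.3 to 121) and 100.5 CPM (57.4 to 163), and Foxp3-negative T cells 56.2 and 52.5 CPM. The dendritic gate had none in 92 and 98 cells, which allows shares of up to 3.26% and 3.06%.

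Foxp3-positive against Foxp3-negative T cells. All 3 activation receptors were higher in Foxp3-positive T cells in each library. Over cells in 1 gate, 26 and 42 Foxp3-positive and 123 and 196 Foxp3-negative, Tnfrsf4 was at 1301 against 366 CPM in CEP and 1438 against 232 CPM in Vehicle. The log2 difference was 1.83 (1.53 to 2.13) and 2.63 (2.33 to 2.94). Tnfrsf9 was at 1807 against 821 CPM and 2014 against 655 CPM, log2 differences of 1.14 (0.91 to 1.37) and 1.62 (1.40 to 1.84). Tnfrsf18 was at 969 against 455 CPM and 1211 against 331 CPM, log2 differences of 1.09 (0.77 to 1.40) and 1.87 (1.58 to 2.17). Each of the 3 was past 2-fold in both libraries. Of all genes measured (at least 20 UMIs), 9.04% of 4371 in CEP and 8.82% of 5318 in Vehicle were at least 2-fold higher in Foxp3-positive cells. Tnfrsf4 ranked 59 from the highest in CEP and 13 in Vehicle. Cd27 differed by log2 0.37 (-0.67 to 1.31) and 0.87 (-0.05 to 1.72), intervals that include no difference.

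With the gates as defined, where 8.53% and 10.3% of measured genes were at least 2-fold higher, the log2 differences in CEP and Vehicle were 1.82 and 3.08 for Tnfrsf4, 1.12 and 1.90 for Tnfrsf9 and 1.23 and 2.15 for Tnfrsf18. All 3 receptors were found together in 25 of 29 CEP and 31 of 45 Vehicle Foxp3-positive T cells, and in 40 of 143 and 33 of 226 Foxp3-negative T cells. These were 22 of 26, 28 of 42, 38 of 123 and 32 of 196 in cells of 1 gate. After each cell of the gates as defined was thinned to 1000 UMIs, all 3 were found in 10 of 27, 13 of 45, 15 of 133 and 7 of 212 cells. The order held at equal depth, although fewer cells then showed all 3.

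Other genes of T cells went both ways in the same split, in lists chosen with earlier results of these data known. Of 22 T cell costimulation and regulatory T cell genes, all measured, 8 were at least 2-fold higher and 8 lower in CEP, and 9 and 4 in Vehicle, in gates where 11.4% and 10.6% of all genes were at least 2-fold lower. The median log2 difference was 0.12 and 0.80, with the 1 gene at 0 in a Vehicle group placed at the ratio that a floor of 3 UMIs gives. Over cells of 1 gate 21 were measured in CEP and 22 in Vehicle, with 9 and 10 higher, 7 and 4 lower and medians of 0.41 and 0.66, where 10.9% and 11.2% of all genes were at least 2-fold lower. The 6 genes named next were past 2-fold in the same direction there too, in both libraries. Itgae, an integrin chain, was higher by log2 3.38 and 2.31, and the Ikaros family regulators Ikzf2 and Ikzf4 by 2.16 and 2.97 and by 3.04 and 1.77. Cd8b1, a chain of the CD8 co-receptor, was lower at -3.85 and -2.05, the checkpoint receptor Havcr2 at -3.00 and -3.26, and Tcf7, a regulator of naive and memory-like T cells, at -2.38 and -3.47. Of 14 other ligands, 7 were measured in CEP and 9 in Vehicle, none was at least 2-fold higher, and 4 and 6 were lower. Cells of 1 gate gave 6 and 9 measured, none higher, and 5 and 7 lower, of which 5 (Fasl, Lta, Tnf, Tnfsf11 and Tnfsf8) were lower in both libraries, on 0 to 5 UMIs in the Foxp3-positive cells. Among 22 adaptors and targets, of which 21 were measured, 2 survival genes were past 2-fold in the same direction in both libraries, Bcl2 lower, at -1.46 and -3.39, and Bcl2l1 higher. The adaptor Traf1, induced through these receptors, was at 400 against 200.2 CPM in CEP and 672 against 263 CPM in Vehicle, the latter a log2 difference of 1.35 (1.01 to 1.68). Its log2 difference in cells of 1 gate was 1.02 (0.59 to 1.45) and 1.16 (0.81 to 1.5).

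**Figure D2:**
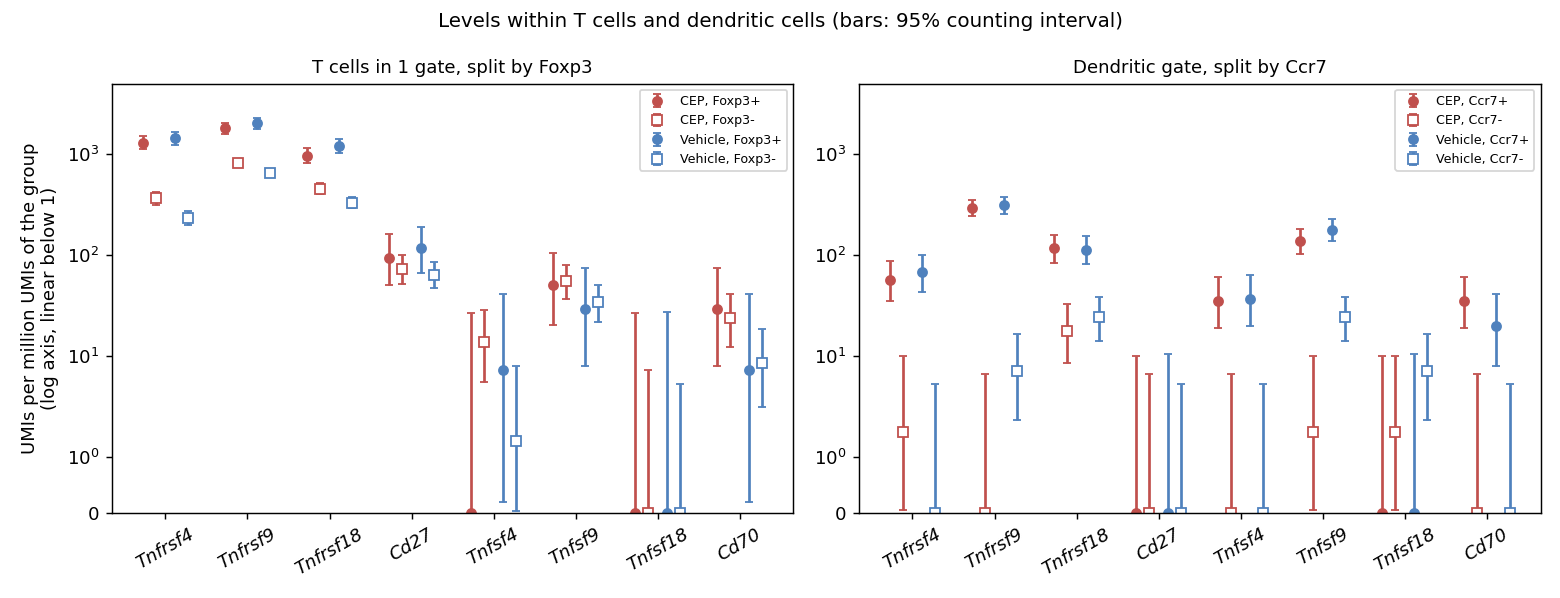
Levels (CPM, log axis, linear below 1) of the 8 genes in T cells of 1 gate divided by Foxp3 (left) and in dendritic cells divided by Ccr7 (right); filled symbols are the positive and open symbols the negative cells, red CEP and blue Vehicle, with 95% counting intervals. Tnfrsf4, Tnfrsf9 and Tnfrsf18 were higher in Foxp3-positive T cells, and these genes and Tnfsf4, Tnfsf9 and Cd70 in Ccr7-positive dendritic cells, in both libraries.

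CD8 split. Among Foxp3-negative T cells, 41 CEP and 59 Vehicle cells had a Cd8a or Cd8b1 UMI and 102 and 167 had none. In the gate as defined, OX40 was lower and 4-1BB and CD27 higher in the CD8 cells, but of these only OX40 was past 2-fold in both libraries in cells of 1 gate. Tnfrsf4 was at 190 against 350 CPM and 115 against 219 CPM, log2 differences of -0.88 (-1.33 to -0.45) and -0.92 (-1.50 to -0.38). Tnfrsf9 was at 726 against 499 CPM and 745 against 398 CPM, log2 differences of 0.54 (0.26 to 0.82) and 0.91 (0.64 to 1.17). Cd27 was at 79.4 against 34.5 CPM and 92.4 against 33.3 CPM, past 2-fold in both libraries, where 11.3% and 11% of all genes were at least 2-fold higher and 10.9% and 15.8% lower. Tnfrsf18 differed between libraries, at log2 -0.98 (-1.38 to -0.58) in CEP and 0.22 (-0.18 to 0.61) in Vehicle. Cells of 1 gate were 36 and 57 with and 87 and 139 without a CD8 UMI. There Tnfrsf4 stood at 235 against 528 CPM and 122 against 307 CPM, log2 differences of -1.17 (-1.62 to -0.72) and -1.33 (-1.92 to -0.78), where 11.4% and 14.2% of genes were at least 2-fold lower and 9.72% and 7.23% higher. The CD8 difference of Tnfrsf9 was then log2 0.17 (-0.12 to 0.45) and 0.43 (0.16 to 0.70), and that of Cd27 0.58 (-0.45 to 1.68) and 0.86 (-0.05 to 1.79), intervals of which 3 include no difference. Tnfrsf18 stood at -1.39 (-1.81 to -0.98) in CEP and -0.26 (-0.66 to 0.13) in Vehicle. Every Cd70 UMI of the Foxp3-negative gate lay in the CD8 cells, 12 against 0 in CEP and 6 against 0 in Vehicle, from 5 and 3 cells.

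4-1BB in the macrophage gate. Macrophage-gate cells can carry T cell RNA, here any UMI of Trac, Trbc1, Trbc2, Cd3d, Cd3e or Cd3g, while 4455 of 4706 CEP and 4861 of 5160 Vehicle cells carried none. Most Tnfrsf9 UMIs of the gate, 76.9% in CEP and 83.2% in Vehicle, lay in the cells without it. Only 3.94% and 6.25% of the Tnfrsf4, 6.25% and 2.02% of the Cd27 and 19.5% and 21.5% of the Tnfrsf18 UMIs did. Tnfrsf9 remained at 61.4 CPM (59.2 to 63.7) and 68.9 CPM (66.8 to 71.1) in macrophage-gate cells free of T cell RNA, while Tnfrsf4 was at 0.31 and 0.56 CPM and Cd27 at 0.062 and 0.035 CPM. In cells with T cell RNA, Tnfrsf4 was at 104 and 110 CPM and Tnfrsf9 at 253 and 183 CPM. All 4 receptors were past 2-fold higher there, as were 7.52% and 8.84% of all genes, while 3.82% and 3.02% were at least 2-fold lower.

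**Figure D3:**
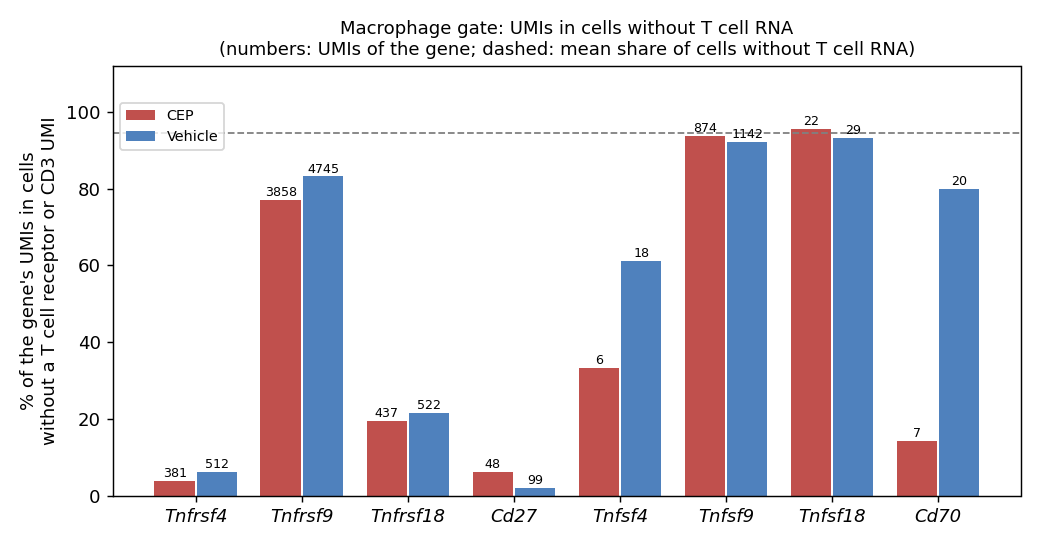
For each gene, the bar gives the percent of its macrophage-gate UMIs found in cells without any T cell receptor or CD3 UMI, red CEP and blue Vehicle, with the number of UMIs above it; the dashed line is the mean share of cells without such RNA. Tnfrsf9, Tnfsf9 and Tnfsf18 stand between 76.9% and 95.5%, whereas Tnfrsf4 and Cd27 stand at 6.25% or below.

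A Tnfrsf9 UMI was present in 19.4% (18.2 to 20.5) of CEP and 18.1% (17.0 to 19.1) of Vehicle macrophages. In cells thinned to 1000 UMIs the share was 6.05% and 5.71%, against 1.52% and 0.99% of neutrophils and 0.84% and 0.75% of epithelial cells at the same depth. The UMIs were concentrated in few cells. The 100 CEP and 144 Vehicle macrophages with 10 or more Tnfrsf9 UMIs held 43.4% and 53.2% of them.

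Among macrophage-gate cells free of T cell RNA, Tnfrsf9 was higher with some macrophage genes and lower with another. These markers were picked after values were seen. The first is Mmp12, the macrophage elastase. Cells with no Mmp12 UMI had 21.9 CPM (20.2 to 23.7) in CEP and 20.8 CPM (19.3 to 22.3) in Vehicle. Cells with 1 to 9 Mmp12 UMIs had 74.7 and 78.9 CPM, and the 457 and 556 cells with 10 or more had 214 CPM (203 to 226) and 257 CPM (246 to 268). Median depth over these bins went from 9252 to 12658 UMIs in CEP and from 10485 to 13691.5 in Vehicle. Tnfrsf9 was also higher with Dcstamp, a cell fusion gene, at 41.6 and 50.4 CPM without it and 218 and 307 CPM in the 37 and 47 cells with 10 or more UMIs. With Arg1, the arginase of tumour macrophages, the levels were 24.9 and 26.8 CPM without it and 107 and 133 CPM at 10 or more UMIs. Mrc1, the mannose receptor, went the other way. Tnfrsf9 was at 109 and 151 CPM in the 1137 and 1182 cells without an Mrc1 UMI, and at 31.7 and 20.9 CPM in the 171 and 211 cells with 10 or more. Median depth differed more over these bins, from 6737 to 15512 UMIs in CEP and from 8398.5 to 15476 in Vehicle. The share of cells with a Tnfrsf9 UMI was 18.2% and 20.9% without Mrc1 and 18.1% and 11.8% at 10 or more. The part of depth was not tested.

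**Figure D4:**
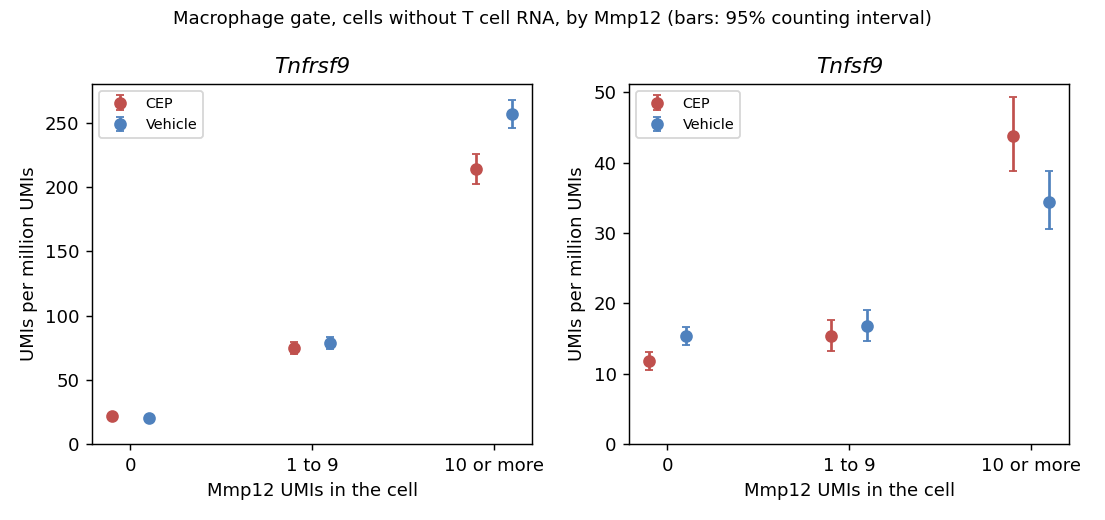
Level in CPM of Tnfrsf9 (left) and its ligand Tnfsf9 (right) in macrophage-gate cells without T cell RNA, by the number of Mmp12 UMIs in the cell, red CEP and blue Vehicle, with 95% counting intervals. Tnfrsf9 went from 21.9 and 20.8 in cells without Mmp12 to 214 and 257 in cells with 10 or more, and Tnfsf9 from 11.8 and 15.3 to 43.8 and 34.5.

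Ligands. 4-1BBL was the ligand with most UMIs, 2100 in CEP and 1633 in Vehicle. Tnfsf9 stood at 55.5 CPM (41.5 to 72.8) and 75.5 CPM (59.8 to 93.9) in dendritic cells and at 31.6 and 22.8 CPM in epithelial cells. Macrophages held 16.9 and 18.5 CPM, T cells between 26.8 and 41.1 CPM with wide intervals, and neutrophils 8.93 and 4.27 CPM. A Tnfsf9 UMI was found in 43.0% (39.7 to 46.5) of CEP and 39.8% (31.5 to 48.7) of Vehicle epithelial cells, the deepest gate, and in 3.72% and 0.75% after thinning. Of all its UMIs 34.4% lay in epithelial cells of 1 gate in CEP and 5.27% in Vehicle, where 834 and 133 epithelial cells had been caught. Both CD45-selected suspensions thus held epithelial cells in different numbers, and shares of UMIs follow those numbers.

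The other ligands were near the limit of detection. Tnfsf4 gave 45 and 66 UMIs in all kept cells, and among the 6 gates it was highest in dendritic cells, at 13.9 and 12.3 CPM (13 UMIs in each library). Cells of no gate held 42.2% and 50% of its UMIs. Ungated cells with a Ccr7 UMI had Tnfsf4 at 14.2 and 56.6 CPM, and those with 3 to 9 C1q UMIs and T cell RNA at 23.0 and 39.2 CPM. Of the ungated Vehicle Tnfsf4 UMIs, 22 came from 2 cells with the natural killer gene Ncr1. Cd70 gave 71 and 60 UMIs, 13 and 7 of them in dendritic cells, 13.9 and 6.6 CPM. Its levels in T cells were of the same size, at 20.5 CPM (5.59 to 52.5) in CEP and 6.28 CPM in Vehicle Foxp3-positive cells, on 4 and 1 UMIs, and 16.5 CPM (8.5 to 28.7) and 6.43 CPM in Foxp3-negative cells, with intervals that overlapped those of dendritic cells. Cells of no gate held 47.9% and 43.3% of the Cd70 UMIs. Those with 3 to 9 C1q UMIs and T cell RNA had Cd70 at 48.4 and 27.1 CPM. Tnfsf18 gave 25 and 37 UMIs, of which 88% and 78.4% lay in the macrophage gate at 0.42 and 0.47 CPM. It was at 0 in 143 and 226 Foxp3-negative T cells, which allows shares of up to 2.10% and 1.33%.

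Ccr7 split of dendritic cells. Ccr7, the chemokine receptor of mature migratory dendritic cells, was present in 40 of 92 CEP and 37 of 98 Vehicle dendritic cells, and most UMIs that Tnfrsf4, Tnfrsf9, Tnfrsf18, Tnfsf4, Tnfsf9 and Cd70 had in the gate lay in them. Tnfrsf9 had 109 UMIs in Ccr7-positive and 0 in Ccr7-negative cells in CEP, at least 55.4-fold higher against a floor of 3 UMIs over the group, and 111 against 5 UMIs in Vehicle, 313 against 7.09 CPM. Its ligand Tnfsf9 had 51 against 1 and 63 against 17 UMIs, 137 against 1.77 and 178 against 24.1 CPM. Tnfrsf4 had 21 against 1 UMIs in CEP and 24 against 0 in Vehicle, the latter at least 15.9-fold higher. Tnfrsf18 was at 116 against 17.7 CPM and 113 against 24.1 CPM, log2 differences of 2.71 (1.70 to 3.87) and 2.22 (1.37 to 3.14).

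Tnfsf4 had 13 UMIs against 0 in each library, at least 6.61-fold and 8.61-fold higher, from 8 and 4 cells. Cd70 had 13 and 7 UMIs against 0, at least 6.61-fold and 4.64-fold higher, from 7 and 6 cells. The floor sets these ratios, and the lower 95% counting limits were below them, at 4.65 and 6.05 for Tnfsf4, 4.65 and 2.86 for Cd70, 44.3 for Tnfrsf9 in CEP and 11.96 for Tnfrsf4 in Vehicle. Tnfsf18 had 0 against 1 and 0 against 5 UMIs, too few to give a direction, and Cd27 was at 0 in all 4 groups. The 4 genes with at least 20 UMIs (Tnfrsf4, Tnfrsf9, Tnfrsf18 and Tnfsf9) were all past 2-fold higher in both libraries, where 9.31% and 11.1% of measured genes were, and 10.3% and 10.2% were at least 2-fold lower. Ccr7-positive cells were the shallower ones, with medians of 8600.5 and 7573 UMIs against 10898 and 10803, and T cell RNA was found in 1 of 92 and 2 of 98 cells of the gate. Tnfrsf9 and Tnfsf9 occurred together in 13 CEP and 10 Vehicle dendritic cells.

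CEP against Vehicle in T cells. With the gates as defined, the 3 activation receptors were lower in CEP Foxp3-positive T cells and higher in CEP Foxp3-negative T cells, but both differences depended on the cells chosen. In Foxp3-positive T cells the log2 ratio was -0.70 (-0.98 to -0.42) for Tnfrsf4, -0.53 (-0.77 to -0.28) for Tnfrsf9 and -0.54 (-0.86 to -0.22) for Tnfrsf18. In cells of 1 gate it was -0.14 (-0.44 to 0.15), -0.16 (-0.41 to 0.10) and -0.32 (-0.66 to 0.01), intervals that include no difference. Leaving out the 3 CEP and 3 Vehicle cells that met another gate thus removed the call for Tnfrsf4, the 1 receptor of these past 1.5-fold. Stricter gates, with 14 CEP and 21 Vehicle cells, gave -0.23 for Tnfrsf4 and turned the sign of Tnfrsf9, to 0.23, and Tnfrsf18, to 0.027. The background in this gate was 16.1% of 2821 measured genes at least 1.5-fold higher and 18.8% lower, and in cells of 1 gate 13.3% and 14.6%.

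In Foxp3-negative T cells the log2 ratio was 0.56 (0.26 to 0.86) for Tnfrsf4, 0.25 (0.06 to 0.44) for Tnfrsf9 and 0.39 (0.12 to 0.65) for Tnfrsf18. In cells of 1 gate it was 0.66 (0.35 to 0.97), 0.33 (0.13 to 0.52) and 0.46 (0.19 to 0.73), so this direction was as large there, and Tnfrsf4 then passed 1.5-fold, where 9.72% of genes were higher and 13.8% lower. Stricter gates gave 0.44 and 0.11 for Tnfrsf4 and Tnfrsf9 and -0.030 for Tnfrsf18. Cd27 was at 56.2 against 52.5 CPM, a log2 ratio of 0.10 (-0.54 to 0.73). None of these 4 was past 1.5-fold in the gate as defined, where 12.1% of 7326 measured genes were higher and 11.5% lower. Tnfsf9 was, with 30 against 25 UMIs and a log2 ratio of 0.62 (-0.20 to 1.45).

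CEP against Vehicle in the other gates. Over the 6 gates, 30 pairs of gene and gate had at least 20 UMIs over both libraries. Of these, 5 were at least 1.5-fold higher and 5 at least 1.5-fold lower in CEP, and 20 were neither. In macrophages, with 8.79% of 14126 measured genes higher and 2.63% lower, Tnfrsf9 was at 74.4 against 77.0 CPM, a log2 ratio of -0.05 (-0.11 to 0.01), and Tnfsf9 at -0.14 (-0.27 to -0.01). The 3 genes called lower there were Cd27 (48 against 99 UMIs, log2 -0.79), Tnfsf4 (6 against 18 UMIs) and Cd70 (7 against 20 UMIs, 14 of the Vehicle ones in 1 cell). T cell RNA in the gate stood at 36.8 CPM in CEP and 44.9 CPM in Vehicle, and without the cells that carry it Cd27 had 3 against 2 UMIs.

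In dendritic cells, with 9.16% of genes higher and 8.53% lower, Cd70 was the 1 gene called, with 13 against 7 UMIs and a log2 ratio of 1.07 (-0.36 to 2.64). The 3 receptors measured there differed by log2 0.05 to 0.09. In epithelial cells, with 5.55% higher and 5.67% lower, Tnfsf9 was at 31.6 CPM (29.3 to 33.9) against 22.8 CPM (18.3 to 28.1), a log2 ratio of 0.47 (0.15 to 0.81) below the 1.5-fold limit. Tnfrsf9 had 153 against 11 UMIs there, a log2 ratio of 1.19 (0.31 to 2.22), with 37 of the CEP UMIs in 1 cell, and Tnfrsf18 had 22 against 2 UMIs, log2 0.85. With cells of 1 gate Tnfrsf18 had 7 against 2 UMIs and turned to log2 -0.80, while Tnfrsf9 had 143 against 6 UMIs and stood at 1.97. Markers of macrophages summed to 35.1 and 28.8 CPM in the epithelial gate and 15628 and 16059.9 CPM in the macrophage gate, and their part in the Tnfrsf9 UMIs was not tested.

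In neutrophils the median gene was higher in CEP by log2 0.18, and 28% of 10404 measured genes were at least 1.5-fold higher against 3.21% lower. Fibroblast markers stood at 705 CPM in CEP against 7.68 CPM in Vehicle neutrophils and epithelial markers at 325 against 44.9 CPM, and their part in the ratios was not tested. Tnfsf9 had 44 against 25 UMIs, a log2 ratio of 1.06 (0.32 to 1.83). It had 29 against 11 UMIs in cells of 1 gate, log2 1.84 (0.80 to 2.99), and after thinning 3 against 7 UMIs, log2 -0.81. Tnfrsf9 was at 26.4 against 20.2 CPM, and at 25.3 against 13.3 CPM in cells of 1 gate, where it passed 1.5-fold. Tnfrsf4 had 19 UMIs in 4 CEP cells against 65 in 9 Vehicle cells, log2 -1.53, and 2 against 1 UMIs in cells of 1 gate, which ends the call.

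**Figure D5:**
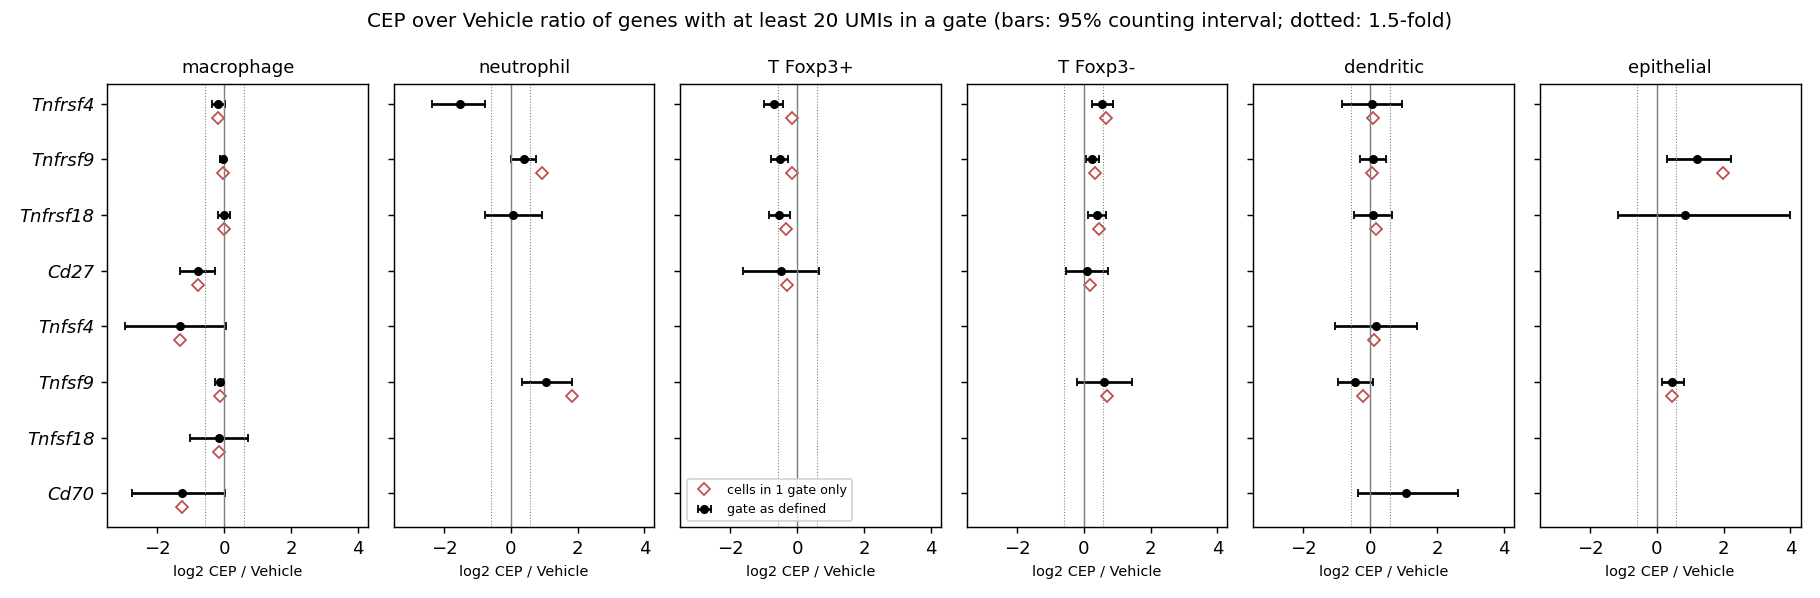
Log2 ratio of CEP to Vehicle level for each gene with at least 20 UMIs in a gate (black, with 95% counting intervals) and the ratio over cells in 1 gate only (open red diamonds, where at least 20 UMIs remained); dotted lines mark 1.5-fold. In Foxp3-positive T cells the diamonds of Tnfrsf4 and Tnfrsf9 lie at -0.14 and -0.16 against -0.70 and -0.53 for the whole gate.

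The rest of the pathway. Of 23 other receptors, 14 other ligands, 22 adaptors and targets and 22 T cell costimulation genes, the share past 1.5-fold varied by gate. In macrophages, where 8.79% of all genes were higher and 2.63% lower, 3 of 17 measured receptors and 1 of 22 adaptors were higher and none lower, and none of 13 ligands was past 1.5-fold. Of the 22 T cell costimulation genes there, 1 was higher and 3 were lower. Itgae was the 1 higher, by log2 1.04, and the T cell genes Cd8a, Cd8b1 and Pdcd1 (PD-1) were lower at -0.64, -0.65 and -0.64, in a gate with T cell RNA at 36.8 CPM in CEP and 44.9 CPM in Vehicle. Among the 3 higher receptors in macrophages, Tnfrsf12a and Tnfrsf10b had intervals clear of no difference. Tnfrsf12a (Fn14, the TWEAK receptor) was at 42.5 against 27.7 CPM, and the death receptor Tnfrsf10b at 1.91 against 0.68 CPM. The adaptor Traf4 was at 9.41 against 4.27 CPM. Epithelial markers in the macrophage gate summed to 106 CPM in CEP and 18.9 CPM in Vehicle. In the epithelial gate Tnfrsf12a was at 429 and 383 CPM, Tnfrsf10b at 18.5 and 16.3 CPM and Traf4 at 90.2 and 83.9 CPM. The part of epithelial RNA in the macrophage ratios was not tested. Tnfrsf12a was higher in neutrophils too, at 84.0 against 17.8 CPM, and in Foxp3-negative T cells, with 43 against 14 UMIs, but with 7 against 12 UMIs in T cells of 1 gate. Other neutrophil genes higher in CEP were Traf2 and Traf4, by log2 0.72 and 0.70, and Il7r, the interleukin-7 receptor, by 0.59. Lower there were Tnfrsf14, the receptor of LIGHT, at -0.83, Ccr7 at -0.95 and the checkpoint receptor Ctla4 at -1.53 on 7 against 24 UMIs. The neutrophil gate shared 28 CEP and 5 Vehicle cells with the epithelial gate, and the part of these in the neutrophil ratios was not tested. It shared 19 CEP and 33 Vehicle cells with the T cell gate. The neutrophil ratios of these listed genes are not given over neutrophils of 1 gate. In Vehicle, Ctla4 went from 142 to 133 UMIs in Foxp3-positive T cells when only cells of 1 gate were taken. In Foxp3-negative T cells it went from 208 to 193. The Vehicle T cells that met another gate all met the neutrophil gate. The Ctla4 UMIs left out with them match in number the 24 of the Vehicle neutrophil gate, so all 24 lay in shared cells. In CEP the place of the 7 UMIs was not traced, and the part of the shared cells in the ratio was not tested.

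In Foxp3-negative T cells the ligands Tnf, at 50.7 against 170 CPM (log2 -1.75, -2.30 to -1.22), and Tnfsf14 (LIGHT), at 6 against 32 UMIs, were lower in CEP, and the NF-kB inhibitor Tnfaip3 was at 485 against 737 CPM. Among cells of 1 gate, with less neutrophil RNA, these stood at log2 -1.67 (-2.29 to -1.10), -1.73 (-3.48 to -0.30) and -0.71 (-0.92 to -0.51). Itgae was lower in the gate as defined, at -0.89, and stood at -0.67 (-1.54 to 0.14) in cells of 1 gate.

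In Foxp3-positive T cells 9 of 16 measured T cell costimulation genes were lower and 1 higher in CEP, where 18.8% of all genes were lower and 16.1% higher, with a median log2 ratio of -0.67 against -0.03 for all genes. In cells of 1 gate 5 of 16 were lower and 2 higher, with a median of -0.28 against -0.01 and a background of 14.6% and 13.3%. Il7r was at 180 against 402 CPM, Cd28 at 9 against 21 UMIs and the checkpoint receptor Lag3 at 6 against 17 UMIs, and the chemokine receptor gene Ccr8 was the 1 that was higher, with 28 against 11 UMIs. These 4 stood in cells of 1 gate at log2 -1.21, -1.45, -1.78 and 1.31, each with an interval clear of no difference. Genes of the other lists were lower in the gate as defined, the ligand Ltb at log2 -0.87, the TNF receptor Tnfrsf1b at -1.19, the NF-kB subunit Rel at -0.85 and Traf1 at -0.75. They stood in cells of 1 gate at -0.52, -0.82 (-1.69 to 0.01), -0.36 (-0.94 to 0.21) and -0.52, and of these only Tnfrsf1b was past 1.5-fold.

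In epithelial cells Tnf was at 18.8 against 30.4 CPM, and the decoy receptor Tnfrsf23 at 19.9 against 12.8 CPM. The nerve growth factor receptor Ngfr, the death receptor Tnfrsf21 and Havcr2 were lower there, at log2 -2.38, -0.76 and -1.78. Havcr2 rested on 16 against 9 UMIs, and stood at 59.3 and 69.2 CPM in macrophages. Ltb and Ccr7 were higher, at 2.09 and 1.20, on 2 and 7 Vehicle UMIs. Ltb stood at 199 and 223 CPM in neutrophils, whose gate shared 28 CEP and 5 Vehicle cells with the epithelial gate. These epithelial ratios are not given over cells of 1 gate, and the part of other cells' RNA in them was not tested. Dendritic cells had Cd40, the receptor for T cell help, at 120 against 78.3 CPM, Tnfrsf1b at 57.6 against 36.8 CPM and Tnfaip3 at 125 against 83.0 CPM.

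Genes of like pattern. Over the 12 points of 6 gates and 2 libraries, which share cells of the same 2 libraries, the 3 genes with the highest Pearson correlation of log2(CPM + 1) were listed for each gene from 11873 genes. Tnfrsf4 was closest to Ctla4 (0.99), Crlf3 and Tnfrsf18, and Tnfrsf18 to Il2ra (0.99), Ctla4 and Cers4. Tnfrsf9 was closest to Cd4 (0.99), Hccs and Tnfrsf18, and Cd27 to the T cell receptor genes Cd247 and Trac (0.99) and to Gimap6. Tnfsf9 was closest to the immunoproteasome gene Psmb8 (0.96), Cd70 to Cd200 (0.95), Tnfsf4 to Fbrsl1 (0.92) and Tnfsf18 to Il12b (0.93), the last 3 on 57 to 73 UMIs.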

How the data were processed

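The authors deposited counts: raw UMIs per gene and barcode for each library, with no normalization, per the file headers. The submitters' processing notes name Cell Ranger 5.0.1 and mm10, whereas the file headers name version 7.1.0. The 2 versions differ in their default for reads in introns, and that setting is not given in the sources, which bears on genes with long introns or with an overlapping neighbour.

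Barcodes under 200 genes or above 15% mitochondrial UMIs were dropped, leaving out 77 CEP and 57 Vehicle barcodes. Scrublet (scanpy 1.11.5) marked 1 barcode in each library and so did not work as a doublet caller. No doublets were removed beyond the limits of the gates, and leaving out the 8% highest scores was an alternative. UMIs were summed over a gate and divided by all its UMIs, in the unit of UMIs per 1000000 (CPM). Genes with at least 20 UMIs over the groups compared counted as measured. A gene was called at 1.5-fold between libraries and at 2-fold within 1. Levels have exact Poisson, ratios exact conditional binomial and shares Clopper-Pearson intervals at 95%. Thinning drew 1000 UMIs per cell with seed 1, leaving out shallower cells. The sums and intervals were tested on simulated data. No test between groups was run, with 1 library per group.

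The 8 genes, the gates, the 4 pathway lists (81 genes) and the 12 marker lists were chosen with earlier results of these data known. The text names all 8 genes in their gates, and from each list up to 3 genes in each direction with the largest ratio past the fold and an interval clear of no difference; Traf1 and the macrophage-gate markers Mmp12, Dcstamp, Arg1, Mrc1 and Ccr7 were picked after values were seen. Alternatives were the barcode filters, the doublet score, cells in 1 gate, stricter gates, mean CPM per cell, thinning, gates without T cell RNA, centring on the median gene, and the UMI and fold limits. Repeating the pathway lists, CD8 split and receptor co-detection over T cells in 1 gate was chosen after seeing the data. Analyses used Python 3.11.15, numpy 2.4.6, scipy 1.17.1, pandas 2.3.3 and matplotlib 3.10.9. Protein sequences were not used here, and 1 gene that the rule gives is not reported here.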

Additional observations from a re-analysis of the deposited data

Results flagged for a closer look

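In 8 pairs of gates, the CEP to Vehicle ratio of a gene lay on opposite sides of no difference, each with a 95% counting interval that left it out. None of these differences between gates was tested, since each gate has 1 library per group. Tnfrsf4 had a log2 ratio of 0.56 in Foxp3-negative T cells, against -0.70 in Foxp3-positive T cells and -1.53 in neutrophils. Tnfrsf18 stood at 0.39 in Foxp3-negative and -0.54 in Foxp3-positive T cells. Tnfrsf9 stood at 0.25 in Foxp3-negative T cells, 0.39 in neutrophils and 1.19 in epithelial cells, against -0.53 in Foxp3-positive T cells. Tnfsf9 stood at 1.06 in neutrophils and 0.47 in epithelial cells, against -0.14 in macrophages. In cells of 1 gate the Foxp3-positive ratios of Tnfrsf4, Tnfrsf9 and Tnfrsf18 were -0.14, -0.16 and -0.32, with intervals that included no difference. The neutrophil gate shared 19 CEP and 33 Vehicle cells with the T cell gate. Neutrophils of 1 gate held 2 against 1 Tnfrsf4 UMIs, a log2 ratio of 1.45 (-2.82 to 7.33), so the opposite direction in neutrophils was lost there.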

How the results depend on the processing

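Of 461 alternative values for 42 results, 389 stayed within the main value's own counting interval or, for counts, within 1.5 times, 63 moved and 9 reversed. For log2 ratios of CEP to Vehicle, taking cells in exactly 1 gate gave -0.14 for Tnfrsf4 and -0.16 for Tnfrsf9 in Foxp3-positive T cells. Stricter gates gave -0.23, 0.23 and 0.027 for Tnfrsf4, Tnfrsf9 and Tnfrsf18 there, -0.030 for Tnfrsf18 in Foxp3-negative T cells and -0.13 for Tnfrsf9 in macrophages. The mean of cell CPM gave -0.26, -0.28 and -0.13 for the 3 receptors in Foxp3-positive T cells, 0.69 for Tnfrsf18 in Foxp3-negative T cells and 0.058 for Tnfrsf9 in macrophages. Thinning gave -0.14 and 1.06 for Tnfrsf18 in Foxp3-positive and Foxp3-negative T cells, 0.13 for Tnfrsf9 and -0.60 for Tnfsf9 in macrophages, and 2.35 for Tnfsf9 in epithelial cells on 32 against 1 UMIs. Leaving out the highest Scrublet scores gave 0.022 for Tnfrsf9 in macrophages and 0.88 for Tnfsf9 in epithelial cells. Macrophages without Cd3 UMIs gave -0.15 for Tnfrsf9, and without any T cell UMIs, an alternative chosen after seeing the data, -0.17. The cause was not tested.

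Foxp3-positive T cells kept the higher level of all 3 receptors under every alternative. Cells in 1 gate gave log2 2.63 for Tnfrsf4 and 1.62 for Tnfrsf9 in Vehicle. Stricter gates gave 2.30, 1.56 and 1.86 for Tnfrsf4, Tnfrsf9 and Tnfrsf18 in CEP, and 1.44 and 1.81 for Tnfrsf9 and Tnfrsf18 in Vehicle. The mean of cell CPM gave 2.39 and 1.85 for Tnfrsf4 and Tnfrsf18 in Vehicle, and thinning 2.50 for Tnfrsf4.

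The 5 pairs called higher became 8 without the highest Scrublet scores, and 3 with stricter gates, with at least 50 UMIs or with a fold of 2. The 5 called lower became 3 without the highest Scrublet scores, in cells of 1 gate, with at least 50 UMIs or with a fold of 2, 1 after thinning or without Cd3 UMIs, and 2 without T cell UMIs. The share of all genes called is not given for these settings, apart from T cells of 1 gate. The counts therefore have no background beside them, and no result about the 8 genes is drawn from them. Pairs called at 1.5-fold reversed on few UMIs in 1 or both libraries, while the sign changes of Tnfrsf9 and Tnfrsf18 in T cells and of Tnfrsf9 in macrophages given above rest on more, and none of those was called. Tnfrsf4 in neutrophils went to 1.45 in cells of 1 gate, 0.26 without Cd3 UMIs and 0.26 without T cell UMIs. Tnfrsf18 in epithelial cells went to -0.80, -0.59 and -0.54 under the same 3. Cd27 in macrophages went to 0.24 without Cd3 and 0.83 without T cell UMIs, and Tnfsf9 in neutrophils to -0.81 after thinning. Another alternative added after seeing the data left out the deepest cell of each gate and moved no T cell result past its interval. No paired analysis was possible because each group is 1 library and no label ties cells to animals. Depth limits Tnfsf4, Tnfsf18 and Cd70, with 25 to 71 UMIs per library.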

Other observations

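Cells outside the gates held 19.8% of the CEP and 22.1% of the Vehicle Tnfrsf9 UMIs and 15.8% and 21.6% of the Tnfrsf4 UMIs. The T cell gates exclude cells with 3 or more C1q UMIs. Among ungated cells with 3 to 9 C1q UMIs, some carried T cell RNA. These had Tnfrsf4 at 244 and 324 CPM, Tnfrsf9 at 650 and 1015 CPM, Tnfrsf18 at 327 and 410 CPM and Cd27 at 59.9 and 82.9 CPM in CEP and Vehicle. The Vehicle level was the higher one for all 4 receptors there, with intervals that overlapped those of CEP for all but Tnfrsf9. With the gates as defined, the Vehicle level was also the higher one in Foxp3-positive T cells. The CEP level was the higher one in Foxp3-negative T cells, and these differences were not tested.

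Ungated cells with the natural killer gene Ncr1 and few Cd3 UMIs, 28 in CEP and 26 in Vehicle, had Tnfrsf9 at 478 CPM (365 to 615) and 924 CPM (783 to 1082). Tnfrsf18 was at 311 and 314 CPM and Cd27 at 71.7 and 54.3 CPM, and Tnfrsf4 gave no UMI in 125580 and 165637 UMIs, which allows up to 23.9 and 18.1 CPM at a floor of 3 UMIs. Ungated cells with B cell genes, 9 and 21, held no UMI of any of the 8 genes, which allows up to 56.5 and 39.0 CPM each. Ungated cells with a Ccr7 UMI, 94 and 78, had Tnfrsf9 at 507 and 570 CPM, Tnfsf9 at 188 and 151 CPM and Cd70 at 26.8 and 25.2 CPM.

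Within the macrophage gate, cells free of T cell RNA with 10 or more Ccr7 UMIs numbered 14 and 9. They had Tnfrsf9 at 421 and 676 CPM and Tnfsf9 at 243 and 182 CPM, against 58.5 and 66.2 CPM and 15.2 and 17.1 CPM in cells with none.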
